A study of Mus musculus with 20 samples.

Results

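A set of 10 genes that govern entry into the cell cycle was followed across 10 sorted populations of mouse blood-forming and blood cells. They are the D cyclins Ccnd1, Ccnd2 and Ccnd3, their kinases Cdk4 and Cdk6, the Cip/Kip inhibitors Cdkn1a (p21), Cdkn1b (p27) and Cdkn1c (p57), and the INK4 inhibitors Cdkn2c (p18) and Cdkn2d (p19). They were taken by symbol from the 18193 genes that have at least 1 probe set of their own on the array, and all 10 were found. They have 26 probe sets between them, none shared with another gene, and each gene is described by the probe set with the highest mean over the arrays. All 10 passed the filter on dim genes, which left 14044 genes in the tests.

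D cyclins are made when growth factors or cytokines act on a cell, and they activate CDK4 and CDK6. These kinases phosphorylate the retinoblastoma protein Rb and its relatives, which releases E2F factors and lets cyclin E with CDK2 carry the cell into S phase. INK4 proteins bind CDK4 and CDK6 alone, while Cip/Kip proteins bind complexes of cyclin and CDK and act mainly on those with CDK2. In mice, the loss of p18 or p21 alters how often haematopoietic stem cells divide, p57 is known for keeping them quiescent, and CDK6 takes part in their exit from quiescence. Red cell precursors are known to stop dividing as they mature, and neutrophils no longer divide once mature.

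The cells came from C57BL/6 mice. The names used here follow the sort labels. KSL cells are, by the usual meaning of the name, Kit-positive, Sca-1-positive and negative for lineage markers, a fraction rich in stem and early progenitor cells. LinNeg cells lack lineage markers and include the more abundant committed progenitors. Of the 8 mature populations, the lymphoid ones were B cells sorted for B220(+), CD4T and CD8T cells for CD4(+) and CD8(+), NK cells for NK1.1 and NKT cells for CD3ε(+) with NK1.1(+). Ter119(+) marked the Erythroblast sort, Mac-1(+) the Monocyte sort (labelled monocytes or macrophages) and Gr-1(+) the Neutrophil sort. No cell was treated or genetically changed by the labels, which give no age, sex, organ or number of animals. Each population was sorted as 2 biological replicates, which gives 20 arrays, and RNA of 3000 cells was amplified for each. P-values set a difference against the spread between replicate arrays, which is pooled over all populations for each gene and moderated across genes. In sorted bulk samples, fewer cells with a transcript and less transcript per cell cannot be told apart.

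The median intensity of an array lay between 20.3 and 26.8, and between 19.5% and 25.3% of probe sets were above 100. Most defining markers were highest where the labels put them. Cd4 read 421 and 363 on the CD4T arrays and 3.63 and 3.33 on the CD8T arrays, and the summed erythroid markers read 30604 and 23729 on the Erythroblast arrays. Zbtb16, the factor that defines NKT cells, did not set NKT apart from CD4T, at 121 and 138 in NKT and 128 and 104 in CD4T. Some defining markers, among them Klrb1c (NK1.1) and Ly6g, were not analysed here. Some arrays also carried markers of other cells. The 5 monocyte markers summed to 13507 and 10931 on the NK arrays, against 6060.5 and 11487 on the Monocyte arrays, and the 4 macrophage markers to 2760.3 and 2293 on the NK arrays, against 812 and 737 on the Monocyte arrays. The 4 neutrophil markers measured summed to 50999 and 41004 on the Neutrophil arrays, 39047 and 32151 on the Monocyte arrays and 6478 and 5267 on the NK arrays. On the LinNeg arrays that sum was 66.2 and 1040.5, and on the NKT arrays 76.6 and 739.8, higher in replicate 2 of both.

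The D cyclins divided the populations. Ccnd2, the D cyclin induced by cytokine and antigen receptor signalling in lymphocytes, was bright in stem and progenitor cells and in all lymphocytes, and dim in erythroblasts, neutrophils and monocytes. Ccnd3, which is needed for the expansion of thymocytes and of red cell precursors, was brightest in those same 3 populations by its brightest probe set. Ccnd1 was highest in KSL and LinNeg cells and dimmer elsewhere. Intensities of different probe sets are not comparable, so only the order of populations within a gene is read. The plot of all arrays by gene shows the 3 patterns.

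**Figure D1:**
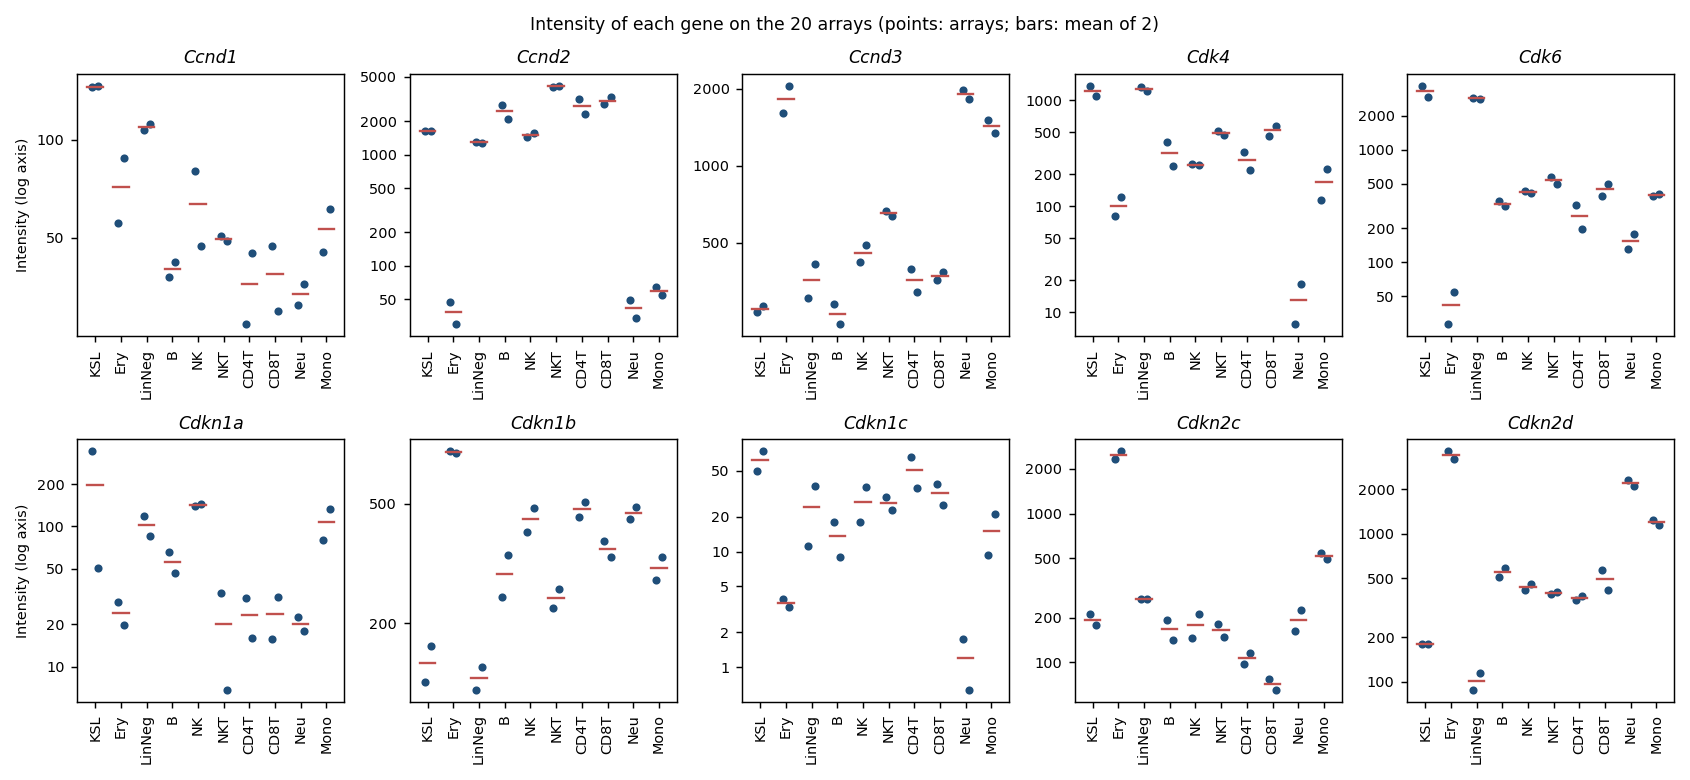
Intensity of each gene (log axis) on the 20 arrays by population; points are arrays and bars the mean of 2. Ery, Neu and Mono stand for Erythroblast, Neutrophil and Monocyte. Ccnd2 and Ccnd3 split the populations in opposite ways, Cdk4 and Cdk6 stand highest in KSL and LinNeg, and Cdkn2c stands highest in Erythroblast; the KSL arrays of Cdkn1a lie far apart.

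The Ccnd2 gene lies on chromosome 6, 127125162 to 127152188 of GRCm38.p6. Ccnd2 read 1648 and 1642 in KSL, 47.8 and 29.7 in Erythroblast and 1296 and 1282 in LinNeg. B read 2814 and 2107, NK 1444 and 1561, NKT 4068 and 4147, CD4T 3161 and 2333 and CD8T 2858 and 3268. Neutrophil read 49.3 and 34.1 and Monocyte 64.0 and 54.3. By mean log2 level, Ccnd2 ran from high to low as NKT, CD8T, CD4T, B, KSL, NK, LinNeg, Monocyte, Neutrophil and Erythroblast. No array of Erythroblast, Neutrophil or Monocyte reached the lowest of the other 14 arrays. LinNeg and Monocyte are the only neighbours in that order that were called apart, by 4.30 ± 0.20 (SE, limma adjusted p = 3.4e-11) on the log2 scale, where a called difference has an adjusted p under 0.05 and a size of at least 1; 29.8% of all genes were called in that pair. The mean of the lymphoid populations was 2776 and that of Neutrophil and Monocyte, the myeloid populations, 50.4, a log2 difference of 5.55 ± 0.12 (SE, limma adjusted p = 5.1e-17). All 7 probe sets of Ccnd2 were called higher in lymphoid populations, with differences from 2.16 to 5.81, and all 7 were called lower in Erythroblast than in LinNeg. Among lymphocytes, NK was below NKT, at a log2 difference of -1.45 ± 0.20 (SE, limma adjusted p = 4.3e-05); the part of the monocyte and neutrophil markers on the NK arrays was not tested.

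The Ccnd3 gene lies on chromosome 17, 47505051 to 47599689. Ccnd3 read 268 and 283 in KSL, 1606 and 2050.1 in Erythroblast and 304 and 413 in LinNeg. B read 288 and 240.0, NK 421 and 491, NKT 666 and 638, CD4T 394 and 319.9 and CD8T 357 and 385. Neutrophil read 1976 and 1830.0 and Monocyte 1514 and 1343. From the highest mean log2 level of Ccnd3 to the lowest, the order was Neutrophil, Erythroblast, Monocyte, NKT, NK, CD8T, CD4T, LinNeg, KSL and B. The arrays of Neutrophil, Erythroblast and Monocyte did not overlap those of any other population, and Monocyte and NKT were the only neighbours called apart, as were 27.5% of all genes. Erythroblast stood 2.33 ± 0.18 (SE, limma adjusted p = 1.7e-09) above LinNeg on the log2 scale. The lymphoid mean stood below the myeloid one, 419.9 against 1666, with a log2 difference of -2.02 ± 0.10 (SE, limma adjusted p = 4.3e-12).

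This order holds for the brightest probe set of Ccnd3 but not for all 3. The probe set 1438805_at read 342 and 497 in CD4T and 196 and 225 in B, against 52.9 and 79.6 in Neutrophil. In Erythroblast it read 26.0 and 3.89, against 42.4 and 68.1 in LinNeg. With it, lymphoid minus myeloid was 1.72 ± 0.23 (SE, limma adjusted p = 2.3e-06) and Erythroblast minus LinNeg was -1.70 ± 0.39 (SE, limma adjusted p = 0.0011), both of the opposite sign. The probe set 1444323_at read 169 and 133 in Erythroblast and 21.7 and 37.7 in LinNeg, and its log2 difference of 2.14 ± 0.33 (SE, limma adjusted p = 1.7e-05) had the sign of the brightest. For lymphoid minus myeloid it gave -0.45 ± 0.19 (SE, limma adjusted p = 0.059) and the mean of all 3 probe sets -0.25, neither called, so the lymphoid and myeloid call of Ccnd3 rests on 1 of its 3 probe sets. For Erythroblast minus LinNeg the mean of all 3 was 0.92 and short of the size. Where on the transcript each probe set lies was not analysed here. Statements on Ccnd3 below are those of the brightest probe set.

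**Figure D2:**
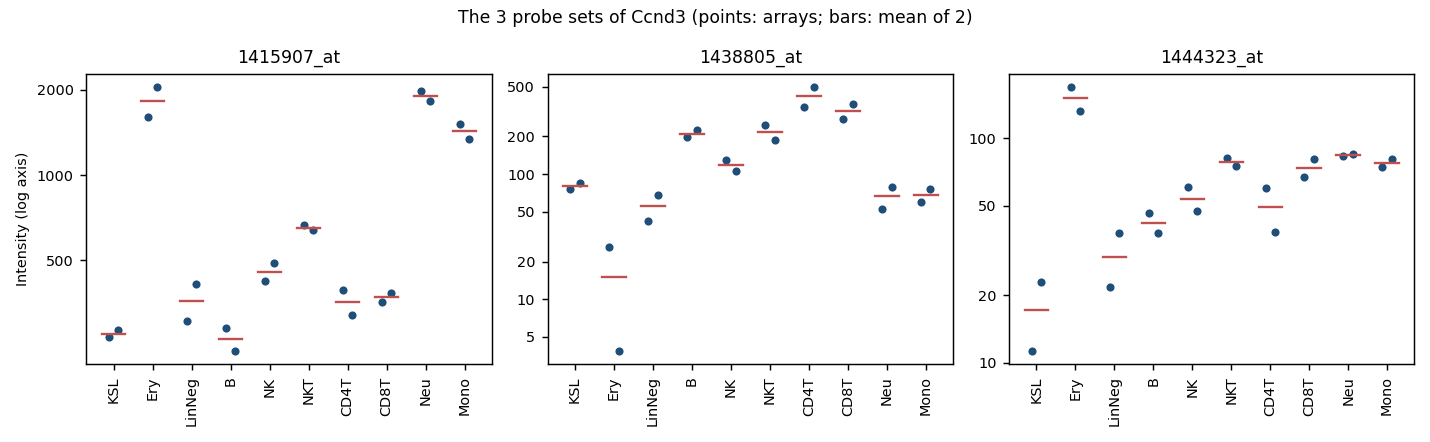
Intensity of the 3 probe sets of Ccnd3 (log axis) on the 20 arrays by population; points are arrays and bars the mean of 2. The brightest probe set, 1415907_at, is high in Erythroblast, Neutrophil and Monocyte, while 1438805_at is high in lymphocytes and lowest in Erythroblast.

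The Ccnd1 gene lies on chromosome 7, 144929931 to 144939831, and many cell types induce it through growth factor receptors. Ccnd1 read 145 and 146 in KSL, 55.4 and 88.0 in Erythroblast and 107 and 112 in LinNeg. B read 37.9 and 42.2, NK 80.2 and 47.4, NKT 50.6 and 48.8, CD4T 27.1 and 44.9 and CD8T 47.4 and 29.9. Neutrophil read 31.2 and 36.2 and Monocyte 45.3 and 61.5. From the highest mean log2 level of Ccnd1 to the lowest, the order was KSL, LinNeg, Erythroblast, NK, Monocyte, NKT, B, CD8T, CD4T and Neutrophil. Both KSL arrays and both LinNeg arrays were above every array of a mature population. KSL was called higher than 7 populations and LinNeg higher than 5, but no neighbours in the order were called apart. KSL cells stood 1.52 ± 0.25 (SE, limma adjusted p = 7.1e-05) above the mean of the mature populations on the log2 scale, and the other 2 probe sets of Ccnd1 gave 1.61 ± 0.44 (SE, limma adjusted p = 0.0075) and 2.65 ± 0.38 (SE, limma adjusted p = 1.6e-05). The order among mature populations is that of the brightest probe set. Erythroblast read 14.0 and 10.8 with 1417420_at, and 4.06 and 2.08 with 1417419_at. NK read 23.1 and 10.1 with the former, and 36.7 and 53.6 with the latter. NK minus NKT was called with 1417419_at, at 2.32 ± 0.50 (SE, limma adjusted p = 0.0034), but not with the other 2 probe sets.

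The kinases were brightest in stem and progenitor cells. Cdk4 and Cdk6 in KSL and in LinNeg were each called higher than in all 8 mature populations, and KSL and LinNeg were not called apart. At the low end they parted: Cdk4 was lowest in Neutrophil and Cdk6 lowest in Erythroblast, each called lower there than in the other 9 populations. Of all genes tested, 3.13% were called lower in Neutrophil than in each other population and 10.4% were so in Erythroblast.

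The 250 bases before the RefSeq start sites of both kinase genes (build GRCm38.p6) are shown because both are brightest in the same populations. Capitals mark the E-box CACGTG, which reads the same on both strands and is bound by Myc with Max and by related factors. The Cdk4 window is chr10:127063285-127063534 on the plus strand and that of Cdk6 is chr5:3343643-3343892 on the plus strand. The Cdk6 window lies within the bounds of the gene, 3341004 to 3531008, so its start site is an internal one.
Cdk4: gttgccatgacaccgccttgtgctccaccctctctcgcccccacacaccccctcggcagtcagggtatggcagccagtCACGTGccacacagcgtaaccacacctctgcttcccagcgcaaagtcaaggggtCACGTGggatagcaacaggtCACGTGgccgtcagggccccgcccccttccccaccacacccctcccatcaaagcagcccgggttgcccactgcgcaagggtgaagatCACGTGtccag
Cdk6: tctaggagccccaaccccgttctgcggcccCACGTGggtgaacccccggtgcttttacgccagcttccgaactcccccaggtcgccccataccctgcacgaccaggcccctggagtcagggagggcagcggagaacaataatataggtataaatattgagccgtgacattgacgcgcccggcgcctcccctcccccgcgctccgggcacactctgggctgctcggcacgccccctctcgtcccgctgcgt
The Cdk4 window holds 4 such E-boxes and the Cdk6 window 1. Other motifs were searched too and are not marked: the Cdk6 window held 1 E2F motif (TTTNNCGC) and the Cdk4 window 1 GGGCGG. At least 1 E-box was found in 6% of 32851 windows of this length, and 4 or more in 7 windows. A match describes the letters and is not a measured binding site. Promoter windows were found for 7 of the 10 genes.

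The Cdk4 gene lies on chromosome 10, 127063535 to 127067288. Cdk4 read 1359.7 and 1092 in KSL, 80.7 and 121 in Erythroblast and 1340.5 and 1228 in LinNeg. B read 403 and 237, NK 251 and 242, NKT 509 and 464, CD4T 327 and 221 and CD8T 464 and 575. Neutrophil read 7.68 and 18.5 and Monocyte 115 and 226. By mean log2 level, Cdk4 ran from high to low as LinNeg, KSL, CD8T, NKT, B, CD4T, NK, Monocyte, Erythroblast and Neutrophil. Both Neutrophil arrays lay below every other array and below 22.9, the median of all values. The called steps in the order were between KSL and CD8T, where 20.4% of all genes were called, and between Erythroblast and Neutrophil, where 44.4% were. KSL cells stood above the mature mean by 2.67 ± 0.24 (SE, limma adjusted p = 6.5e-08) on the log2 scale, and Neutrophil below Monocyte, with a difference of -3.14 ± 0.32 (SE, limma adjusted p = 2.1e-06). Erythroblast minus LinNeg was -3.61 ± 0.32 (SE, limma adjusted p = 1.4e-08). The probe set is of the _x_at kind, whose probes can bind related transcripts, and the other 2 probe sets gave 2.40 and 2.73 for KSL minus the mature mean.

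The Cdk6 gene lies on chromosome 5, 3341004 to 3531008. Cdk6 read 3690.4 and 2964 in KSL, 28.1 and 54.8 in Erythroblast and 2910.4 and 2805 in LinNeg. B read 351 and 314, NK 429 and 416, NKT 577 and 499, CD4T 321 and 196 and CD8T 391 and 500.1. Neutrophil read 131 and 177 and Monocyte 385 and 405. From the highest mean log2 level of Cdk6 to the lowest, the order was KSL, LinNeg, NKT, CD8T, NK, Monocyte, B, CD4T, Neutrophil and Erythroblast. No array of a mature population exceeded 577, and LinNeg stood 2.40 ± 0.25 (SE, limma adjusted p = 4.9e-07) above NKT, the next in order, on the log2 scale, a pair in which 23.3% of all genes were called. Neutrophil and Erythroblast, the last of the order, were called apart too. The mean in KSL was 3327 and that over the mature populations 323, a log2 difference of 3.63 ± 0.19 (SE, limma adjusted p = 1.1e-10). Erythroblast minus LinNeg was -5.95 ± 0.25 (SE, limma adjusted p = 4.7e-13), the largest difference in size among the 10 genes in that comparison. Of the other 2 probe sets, 1435338_at gave -7.03 ± 0.34 (SE, limma adjusted p = 3.1e-12), and 1460291_at was below the filter.

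The INK4 inhibitors were brightest in erythroblasts. Cdkn2c was called higher in Erythroblast than in each of the other 9 populations, as were 6.52% of all genes tested. Cdkn2d was brightest in Erythroblast, then in Neutrophil and Monocyte, and dimmest in KSL and LinNeg. Each of these genes has a single probe set, so no second reading exists.

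Windows of 250 bases before a RefSeq start site of each gene are shown because both genes are brightest in erythroblasts. Capitals mark the GC box, GGGCGG, searched on both strands, which Sp and Krüppel-like factors are known to bind. The windows are chr4:109666757-109667006 on the minus strand for the first start site of Cdkn2c and chr9:21291210-21291459 on the minus strand for Cdkn2d. Most of the Cdkn2d window lies within the bounds of the gene, 21288459 to 21291421, so its start site is an internal one.
Cdkn2c: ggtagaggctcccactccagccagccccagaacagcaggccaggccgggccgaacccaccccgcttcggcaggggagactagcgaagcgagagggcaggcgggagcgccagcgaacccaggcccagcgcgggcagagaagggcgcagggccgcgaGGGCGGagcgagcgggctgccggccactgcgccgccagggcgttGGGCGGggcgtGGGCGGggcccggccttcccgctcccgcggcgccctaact
Cdkn2d: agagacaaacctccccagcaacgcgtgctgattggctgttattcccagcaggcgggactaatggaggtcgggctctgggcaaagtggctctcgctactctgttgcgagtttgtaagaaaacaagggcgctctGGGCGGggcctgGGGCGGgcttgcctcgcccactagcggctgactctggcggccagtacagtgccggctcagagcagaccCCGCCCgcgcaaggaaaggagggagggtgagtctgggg
Each of these windows holds 3 GC boxes, while the window of the second start site of Cdkn2c, which is not shown, holds 0. Other motifs were searched in the same windows and are not marked. The GATA motif AGATAA had 0 matches in both windows shown, and the Cdkn2d window held 1 CCAAT and 1 p53 half-site. At least 1 GC box was found in 32.7% of the 32851 windows and 3 or more in 8.469%. Among the other genes, the windows of Ccnd3 held 2 and 1 GC boxes, and those of Cdk4 and Cdkn1b 1 each. The second start site of Cdkn1a had 2, while its first start site and Cdk6 had 0.

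The Cdkn2c gene lies on chromosome 4, 109660876 to 109666756. Cdkn2c read 210.5 and 177 in KSL, 2314 and 2621 in Erythroblast and 266 and 268 in LinNeg. B read 194 and 141, NK 147 and 212, NKT 181 and 149, CD4T 97.5 and 116 and CD8T 76.8 and 65.3. Neutrophil read 161 and 226 and Monocyte 547 and 494. From the highest mean log2 level of Cdkn2c to the lowest, the order was Erythroblast, Monocyte, LinNeg, KSL, Neutrophil, NK, B, NKT, CD4T and CD8T. Both Erythroblast arrays lay above all others, and Erythroblast and Monocyte were the only neighbours called apart, by 2.23 ± 0.23 (SE, limma adjusted p = 7.1e-08) on the log2 scale, as were 41.2% of all genes. Erythroblast minus LinNeg was 3.17 ± 0.23 (SE, limma adjusted p = 6.9e-10). Neutrophil stood below Monocyte, with a difference of -1.41 ± 0.23 (SE, limma adjusted p = 0.0002). KSL minus the mature mean was -0.28 ± 0.17 (SE, limma adjusted p = 0.2) and was not called.

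The Cdkn2d gene lies on chromosome 9, 21288459 to 21291421. Cdkn2d read 181 and 181 in KSL, 3599 and 3199 in Erythroblast and 88.3 and 116 in LinNeg. B read 509 and 590.1, NK 419.8 and 460.2, NKT 393 and 405, CD4T 355 and 377 and CD8T 566 and 418. Neutrophil read 2301 and 2113 and Monocyte 1244 and 1137. By mean log2 level, Cdkn2d ran from high to low as Erythroblast, Neutrophil, Monocyte, B, CD8T, NK, NKT, CD4T, KSL and LinNeg. The arrays of KSL and LinNeg, of the lymphocytes, and of Erythroblast, Neutrophil and Monocyte form 3 ranges that do not overlap, and Monocyte and B were the only neighbours called apart, as were 27.2% of all genes. Erythroblast minus LinNeg was 4.98 ± 0.17 (SE, limma adjusted p = 2.5e-14), and KSL minus the mature mean -2.09 ± 0.13 (SE, limma adjusted p = 5.0e-10). KSL stood 0.80 ± 0.17 (SE, limma adjusted p = 0.0055) above LinNeg on the log2 scale, past the adjusted p but short of the size a call needs.

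The Cip/Kip inhibitors did not share a pattern. Cdkn1b was dimmest in KSL and LinNeg and brightest in Erythroblast, Cdkn1c was dim throughout with its highest mean in KSL, and Cdkn1a was bright in NK, KSL, Monocyte and LinNeg with a wide spread. No 2 neighbours in the order were called apart for any of the 3 genes.

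The Cdkn1b gene lies on chromosome 6, 134920401 to 134925525, and its product holds back CDK2 in resting cells. Cdkn1b read 127 and 168 in KSL, 746 and 739 in Erythroblast and 120.043 and 142 in LinNeg. B read 245 and 336, NK 403 and 484, NKT 225 and 261, CD4T 452 and 508 and CD8T 375 and 332. Neutrophil read 445 and 488 and Monocyte 278 and 333. From the highest mean log2 level of Cdkn1b to the lowest, the order was Erythroblast, CD4T, Neutrophil, NK, CD8T, Monocyte, B, NKT, KSL and LinNeg. The KSL and LinNeg arrays lay below every array of a mature population, and both Erythroblast arrays above all others. KSL minus the mature mean was -1.38 ± 0.15 (SE, limma adjusted p = 5.5e-07) on the log2 scale and Erythroblast minus LinNeg 2.45 ± 0.20 (SE, limma adjusted p = 3.7e-09). Erythroblast minus the other mature populations, at 1.04 ± 0.15 (SE, limma adjusted p = 4.6e-06), was just past the size a call needs, and with the other probe set it was 0.82 ± 0.22 (SE, limma adjusted p = 0.0038).

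The Cdkn1a gene, a target of p53, lies on chromosome 17, 29090979 to 29100722. Cdkn1a read 342 and 50.5 in KSL, 28.6 and 19.8 in Erythroblast and 118 and 85.5 in LinNeg. B read 65.1 and 46.1, NK 140.1 and 144, NKT 33.5 and 6.83, CD4T 30.7 and 16.0 and CD8T 15.8 and 31.5. Neutrophil read 22.4 and 17.9 and Monocyte 80.2 and 133. By mean log2 level, Cdkn1a ran from high to low as NK, KSL, Monocyte, LinNeg, B, Erythroblast, CD8T, CD4T, Neutrophil and NKT. The KSL arrays were further apart, as a ratio, than those of any other population. Replicate 1, the higher, also read higher than replicate 2 in the summed monocyte markers, 1061 against 317, and megakaryocyte markers, 1491 against 856; their part was not tested. KSL minus the mature mean was 1.65 ± 0.46 (SE, limma adjusted p = 0.0073), and 0.35 without KSL replicate 1, where the call ended. NK stood above NKT by 2.67 ± 0.62 (SE, limma adjusted p = 0.0049) on the log2 scale, and the arrays of the 2 populations did not overlap. The call ended without NKT replicate 2, at 1.89. The monocyte markers summed to 13507 and 10931 on the NK arrays and 911 and 1683 on the NKT arrays. The macrophage markers summed to 2760.3 and 2293 on the NK arrays and 306 and 1315 on the NKT arrays, and the part of these cells in the NK and NKT differences was not tested.

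The Cdkn1c gene, which is imprinted and expressed from the maternal copy, lies on chromosome 7, 143458339 to 143461059. Cdkn1c read 50.003 and 73.4 in KSL, 3.86 and 3.33 in Erythroblast and 11.1 and 37.1 in LinNeg. B read 18.1 and 8.96, NK 17.9 and 36.2, NKT 29.8 and 22.9, CD4T 66.0 and 35.2 and CD8T 38.1 and 25.4. Neutrophil read 1.77 and 0.637 and Monocyte 9.26 and 21.1. By mean log2 level, Cdkn1c ran from high to low as KSL, CD4T, CD8T, NKT, NK, LinNeg, Monocyte, B, Erythroblast and Neutrophil. All arrays of Erythroblast, Neutrophil and Monocyte were below the median of all values, as was at least 1 array of LinNeg, B, NK and NKT, so the low end of the order is weakly measured. KSL minus the mature mean was 1.56 ± 0.36 (SE, limma adjusted p = 0.0018) on the log2 scale, and 1.31 and no longer called without KSL replicate 2. KSL minus LinNeg, at 1.27 ± 0.48 (SE, limma adjusted p = 0.12), was not called, while without LinNeg replicate 2 it was 1.92 and called. That array is also the LinNeg array with neutrophil markers, whose part was not tested.

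Set side by side, the 10 genes fall into a few shapes, which the heat map of relative levels shows. All of them differed among the 10 populations by the moderated F test of limma, as did 76.5% of all genes tested. Of the 45 pairs of populations, between 12 (Ccnd1) and 31 (Cdk4 and Cdkn2d) were called for a gene, and the median over all genes was 10. The share of all genes called in a pair ran from 3.03% to 47.6%. Of the 90 steps between neighbours in the order of a gene, 8 were called, so most orders hold only in their outlines.

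**Figure D3:**
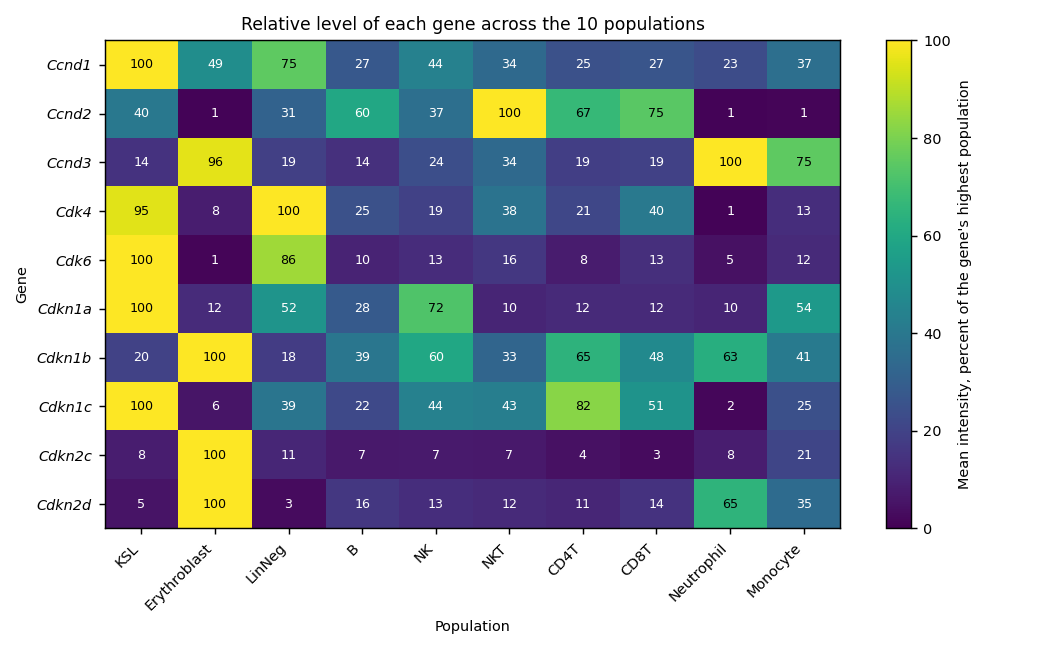
Mean intensity of each gene in each population as a percent of that gene's highest population. Ccnd2 is at 37% or more of its maximum in NK and brighter lymphocytes and at 1% in Erythroblast, Neutrophil and Monocyte, and Cdk6 is at 86% in LinNeg and 16% or less in mature cells.

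Stem and progenitor cells were compared first. Between KSL and LinNeg, 0 of the 10 genes were called by limma, where 5.3% of all genes were (2.95% higher and 2.35% lower); 2 of the 10 had an unadjusted p under 0.05. Of the 6 tested cyclins and CDKs of S phase and mitosis, 0 were called higher and 3 lower, with Ccne1 (cyclin E1) at -3.04 ± 0.23 (SE, limma adjusted p = 1.3e-07), Ccne2 at -1.34 ± 0.39 (SE, limma adjusted p = 0.038) and Ccna2 (cyclin A2) at -1.23 ± 0.24 (SE, limma adjusted p = 0.0037) on the log2 scale; Ccnb2, Cdk1 and Cdk2 were not called. Ccne1 read 184 and 126 on the KSL arrays and 1399 and 1217 on the LinNeg arrays. Of 18 proliferation markers, 0 were higher and 1 lower. The erythroid markers summed to 690.5 and 423 in KSL and 3853 and 3725 in LinNeg, and the plasma cell markers to 97.8 and 96.9 in KSL and 3266 and 2896 in LinNeg; their part in these differences was not tested. Among the 10 imprinted genes tested, Ndn (necdin) and Meg3 were called higher in KSL, at 2.68 ± 0.46 (SE, limma adjusted p = 0.0011) and 1.34 ± 0.39 (SE, limma adjusted p = 0.039), and none was called lower.

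Against the mean of the 8 mature populations, KSL cells had more of both kinases and less of 3 genes. In all, 9 of the 10 genes were called, against 22.7% of all genes: 6 higher (Ccnd1, Ccnd2, Cdk4, Cdk6, Cdkn1a and Cdkn1c), where 15.8% of all genes were, and 3 lower (Ccnd3, Cdkn1b and Cdkn2d), where 6.87% were. With probe set 1438805_at, Ccnd3 was at -0.58 ± 0.29 (SE, limma adjusted p = 0.13) and not called. With 1444323_at it was at -1.75 ± 0.25 (SE, limma adjusted p = 1.4e-05). By the brightest probe set, Ccnd3 in KSL was called lower than in 4 populations, and B had a lower mean (264 against 276). For Ccnd2, KSL stood on the log2 scale at 1.45 ± 0.15 (SE, limma adjusted p = 5.0e-07) relative to the mature mean, yet B, CD4T, CD8T and NKT had higher mean intensities than KSL. Without Erythroblast in the mature mean, the difference of Ccnd2 was 0.91 and not called. Of 18 proliferation markers, 10 were higher and 0 lower, led by the helicase subunits Mcm2 at 2.26 ± 0.15 (SE, limma adjusted p = 1.9e-09) and Mcm3 at 2.07 ± 0.14 (SE, limma adjusted p = 1.3e-09). Of 13 Rb, E2F and DP genes, 6 were higher and 2 lower, with E2f5 at 2.96 and E2f2 at -2.81.

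**Figure D4:**
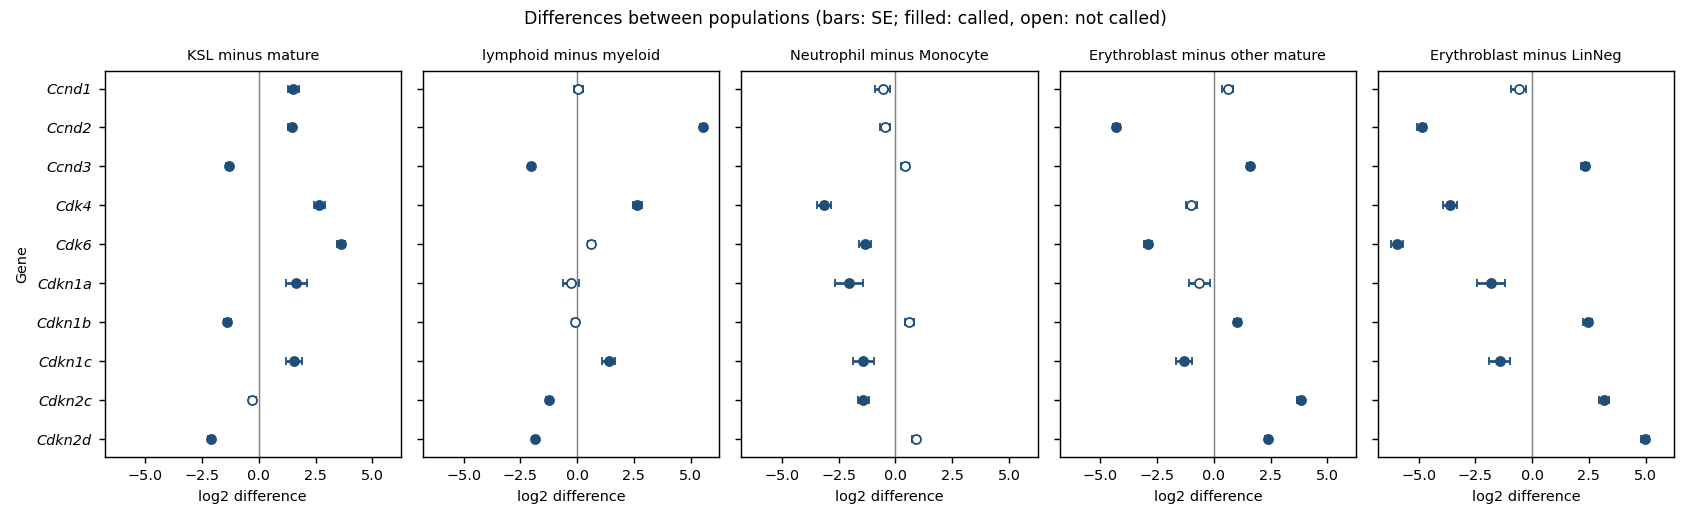
Log2 differences (horizontal axis) of the 10 genes in 5 comparisons, with the limma standard error as bars; filled points were called and open points were not. In Erythroblast minus LinNeg, 4 called genes are to the right and 5 to the left, among them both kinases; in Neutrophil minus Monocyte all 5 called genes are to the left.

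Lymphoid and myeloid mature cells differed in 6 of the 10 genes, against 29.4% of all genes. Higher in lymphoid cells, as were 17.4% of all genes, were Ccnd2 with the values above, Cdk4 at 2.65 ± 0.19 (SE, limma adjusted p = 4.0e-10) and Cdkn1c at 1.39 ± 0.28 (SE, limma adjusted p = 0.00033). Lower, as were 11.9%, were Ccnd3, Cdkn2c at -1.24 ± 0.13 (SE, limma adjusted p = 1.4e-07) and Cdkn2d at -1.85 ± 0.10 (SE, limma adjusted p = 7.2e-12). Only Ccnd2, Ccnd3 and Cdkn2d did not overlap between the arrays of the 2 sides. The 6 calls also held with NK, whose arrays carried monocyte and neutrophil markers, left out. With the pseudocount at the 50th percentile of all values, Cdkn1c was at 0.76 and no longer called. Of 18 proliferation markers, 1 was higher and 10 lower in lymphoid cells, with Ube2c at -3.15 ± 0.22 (SE, limma adjusted p = 3.1e-10) and Mki67 at -2.59 ± 0.23 (SE, limma adjusted p = 1.0e-08), both lower on the side where Ccnd2 and Cdk4 were higher. Foxo1, a factor that induces Cdkn1b in mouse and human cells, was higher in lymphoid cells, at 4.30 ± 0.19 (SE, limma adjusted p = 3.3e-13), while Cdkn1b itself, at -0.11 ± 0.12 (SE, limma adjusted p = 0.46), was not called.

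In the following comparisons within the lymphocytes, few of the genes were called. Single pairs of populations held further calls. Cdkn2c in CD8T, for example, was called lower than in 8 populations, B, NK and NKT among them. Between B and T cells, Cdkn1c alone was called, lower in B at -1.21 ± 0.42 (SE, limma adjusted p = 0.048), against 12.8% of all genes (5.82% higher and 7.01% lower). That call ended with both other pseudocounts, both other scalings, no filter or a replicate block, and without any 1 of 15 of the 20 arrays. The plasma cell markers, 1 of which (Mzb1) B cells also express, summed to 2177 and 1871 on the B arrays, 36.8 and 54.5 on the CD4T arrays and 30.0 and 35.3 on the CD8T arrays; their part was not tested. In the same comparison 6 of the 18 proliferation markers were higher in B and 0 lower, with Rrm2, a ribonucleotide reductase subunit, at 2.21 ± 0.30 (SE, limma adjusted p = 1.4e-05). Between CD4T and CD8T, limma called 0 of the 10 genes, against 3.16% of all genes (2.08% higher and 1.08% lower; with array median centring 54.97% of the called genes were higher, and 65.77% without), with 5 at an unadjusted p under 0.05; Cdk4 read 327 and 221 in CD4T and 464 and 575 in CD8T. Between NKT and the mean of CD4T and CD8T, limma called 0 of 10, against 3.22% of all genes (1.89% higher and 1.32% lower), with 5 at an unadjusted p under 0.05. There Ccnd3, at 0.83 ± 0.15 (SE, limma adjusted p = 0.0024), passed the adjusted p but not the size. Between NK and NKT, Ccnd2 was lower in NK and Cdkn1a higher, which is 2 of the 10 genes against 11.1% of all genes (6.73% higher and 4.39% lower).

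By the brightest probe sets, neutrophils had less of both kinases and of 3 inhibitors than monocytes. The 5 genes called, Cdk4, Cdk6, Cdkn1a, Cdkn1c and Cdkn2c, were all lower in Neutrophil, against 12% of all genes called and 9.46% called lower; 2.58% were called higher. Cdk6 stood at -1.34 ± 0.25 (SE, limma adjusted p = 0.00081), Cdkn1a at -2.04 ± 0.62 (SE, limma adjusted p = 0.025) and Cdkn1c at -1.41 ± 0.48 (SE, limma adjusted p = 0.046) on the log2 scale. Cdkn2d was at 0.89 ± 0.17 (SE, limma adjusted p = 0.00096), past the adjusted p but not the size. For each of the 5 called genes the 2 populations did not overlap. Without Neutrophil replicate 1, without Neutrophil replicate 2 or without Monocyte replicate 2, the calls of Cdkn1a and Cdkn1c ended. That of Cdkn1a also ended without a trend in eBayes, at an adjusted p of 0.055 by limma, and with its other probe set, at -1.53 ± 0.62 (SE, limma adjusted p = 0.11). That of Cdkn1c also ended with the pseudocount at the 50th percentile (-0.64), with array median centring, with no filter, with the replicate block and without any 1 array of KSL, CD8T or NKT. That of Cdk6 ended with its other probe set, 1435338_at, at -0.93 ± 0.34 (SE, limma adjusted p = 0.076), and with the mean of all its probe sets (-0.77). Of the 18 proliferation markers, 0 were higher and 15 lower in Neutrophil, with Mcm3 at -3.18 ± 0.18 (SE, limma adjusted p = 8.0e-09), and of the 6 cyclins and CDKs of later phases 4 were lower. The neutrophil markers summed to 50999 and 41004 on the Neutrophil arrays and 39047 and 32151 on the Monocyte arrays, and their part in these values was not tested. Centring each array on its median moved the share of called genes that were higher in Neutrophil to 32.19%, where it was 21.47% on the deposited scale.

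Erythroblasts had more Ccnd3, Cdkn1b and INK4 inhibitors and less Ccnd2 and Cdk6 than the mean of the other mature populations. For Ccnd3 and Ccnd2, Erythroblast was not called apart from Neutrophil or Monocyte. For Cdkn2d it was not called apart from Neutrophil, nor for Cdkn1b from CD4T, Neutrophil or NK. Cdkn1c had a mean of 3.59 in Erythroblast and a lower one, 1.20, in Neutrophil. Against the other 7 mature populations, 7 of the 10 genes were called, where 46% of all genes were. Higher were Ccnd3 at 1.58 ± 0.13 (SE, limma adjusted p = 3.4e-09), Cdkn1b, Cdkn2c at 3.82 ± 0.17 (SE, limma adjusted p = 2.5e-13) and Cdkn2d at 2.39 ± 0.13 (SE, limma adjusted p = 3.5e-12), and 17.5% of all genes were called higher. Lower were Ccnd2 at -4.30 ± 0.15 (SE, limma adjusted p = 1.2e-14), Cdk6 at -2.90 ± 0.19 (SE, limma adjusted p = 6.9e-11) and Cdkn1c at -1.31 ± 0.36 (SE, limma adjusted p = 0.0039), and 28.4% of all genes were called lower. For Ccnd3 the mean of all its probe sets gave -0.15. With the pseudocount at the 50th percentile, Cdkn1c was at -0.72 against the other mature populations and -0.77 against LinNeg, and neither was called. Against LinNeg 9 of the 10 genes were called by their brightest probe sets, where 43.5% of all genes were. Ccnd1, the gene not called, stood at -0.60 ± 0.33 (SE, limma adjusted p = 0.14). Its other probe sets were both called lower, 1417420_at at -1.61 ± 0.59 (SE, limma adjusted p = 0.031) and 1417419_at at -2.97 ± 0.50 (SE, limma adjusted p = 5.7e-05). Ccnd3, Cdkn1b, Cdkn2c and Cdkn2d were higher, as were 14.5% of all genes, and Ccnd2, Cdk4, Cdk6, Cdkn1a and Cdkn1c were lower, as were 28.9%. Cdkn1a stood at -1.81 ± 0.62 (SE, limma adjusted p = 0.019), but at 0.050 ± 0.62 (SE, limma adjusted p = 0.96) with its other probe set. Both comparisons contain the same Erythroblast arrays.

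Most other cell cycle genes were also high in erythroblasts. Against the other mature populations, 18 of 18 proliferation markers were higher, with a median log2 difference of 3.87 beside -0.13 over all genes. Ube2c stood at 6.11 ± 0.28 (SE, limma adjusted p = 4.1e-13) and read 9071 and 6505 in Erythroblast, against 513 and 245 in LinNeg. All 6 later cyclins and CDKs were higher, with Cdk1, the mitotic kinase, at 5.16 ± 0.20 (SE, limma adjusted p = 2.5e-14) and Ccnb2 at 4.78 ± 0.23 (SE, limma adjusted p = 1.0e-12). Of 13 Rb, E2F and DP genes 11 were higher and 1 lower, led by the repressor E2f8 at 5.87 ± 0.36 (SE, limma adjusted p = 3.4e-11) and by Tfdp2, a partner of E2F factors known in red cell precursors, at 5.76 ± 0.23 (SE, limma adjusted p = 4.0e-14). Of 14 other regulators of CDK activity 8 were higher and 3 lower, among them the phosphatase Cdc25b at 3.55 ± 0.16 (SE, limma adjusted p = 2.8e-13). Against LinNeg, 12 of the 18 proliferation markers were higher and 0 lower, with a median of 1.59 beside -0.19 over all genes.

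Of all genes, 17.5% were called higher and 28.4% lower in Erythroblast than in the other mature populations, and 14.5% higher and 28.9% lower than in LinNeg. This balance moved with the scaling. Against the other mature populations, 38.15% of the called genes were higher, 45.12% with array median centring and 46.54% with quantile normalization. Against LinNeg these values were 33.39%, 39.88% and 42.54%. Of the 10 genes of FoxO and TGF-beta signalling, 2 were higher and 8 lower than in the other mature populations. Tgfbr2, the type II receptor, stood at -6.32 ± 0.14 (SE, limma adjusted p = 8.9e-18), Smad4 at -4.83 ± 0.17 (SE, limma adjusted p = 1.0e-14) and Foxo1 at -3.83 ± 0.24 (SE, limma adjusted p = 3.2e-11). Tgfbr2 read 5.26 and 11.7 in Erythroblast, against 312 and 372 in LinNeg. Of 13 genes of the p53 pathway, 3 were higher and 5 lower, near the 17.5% and 28.4% of all genes, with Gadd45a at 3.52 ± 0.35 (SE, limma adjusted p = 3.1e-08) and Gadd45b at -4.68 ± 0.22 (SE, limma adjusted p = 5.2e-13). Relative to LinNeg 6 were higher and 4 lower, with the antiproliferative gene Btg2 at 3.52 ± 0.42 (SE, limma adjusted p = 6.7e-07) and Ccng1 at -2.94 ± 0.18 (SE, limma adjusted p = 1.0e-10), while Cdkn1a was lower by the brightest probe set only.

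Averaged over the list, the proliferation markers had a mean log2 level of 9.49 in KSL, 11.60 in Erythroblast and 9.90 in LinNeg. B stood at 8.22, NK at 8.05, NKT at 7.66, CD4T at 7.43 and CD8T at 7.22. Neutrophil stood at 7.82 and Monocyte at 9.61. Cdkn2c and this list had the same 3 highest populations and the same 2 lowest. NKT, CD8T, CD4T and B, the 4 highest populations of Ccnd2, were among the 6 lowest of the list. The plot of 3 lists by array shows these levels.

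**Figure D5:**
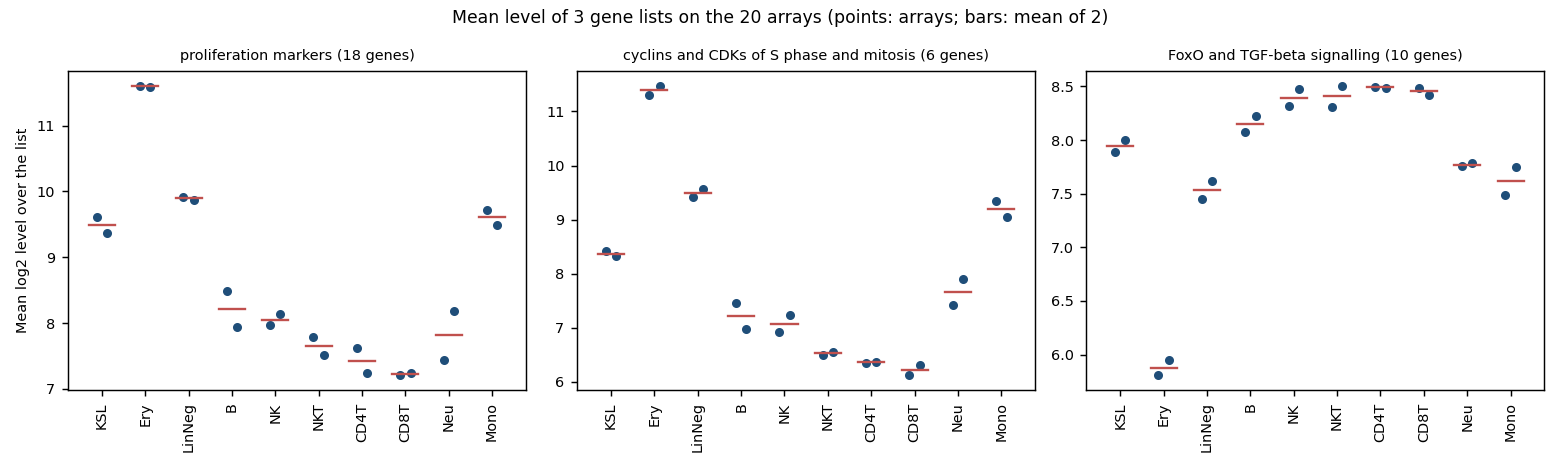
Mean log2(intensity + pseudocount) over 3 gene lists on the 20 arrays by population; points are arrays and bars the mean of 2. Erythroblast is highest for the proliferation markers and for the later cyclins and CDKs, and lowest for FoxO and TGF-beta signalling.

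The genes whose means over the 10 populations ran most like each of these were listed by Pearson correlation on the log2 scale, as a description over 10 points that all come from arrays on one scale. For Ccnd2 they were Jakmip1 (0.99), Zfp160 and Ddt, and for Ccnd3 Mdfi (0.97), Ilk and Mxd1. For Ccnd1 they were Gng11 (0.95), Rhobtb1 and Muc13. For Cdk4 they were Atic (0.99), an enzyme of purine synthesis, Atp5a1, a subunit of mitochondrial ATP synthase, and Ppa1, a pyrophosphatase. For Cdk6 they were Rsl24d1 (0.98), a factor of ribosome assembly, Mipep and Paip1. For Cdkn2c they were the histone methyltransferase gene Nsd2 (0.99), the histone chaperone gene Asf1b and the kinesin gene Kifc5b, and for Cdkn2d Rnf181 (0.99), Ypel5 and Kdm7a. For Cdkn1b they were Tbx6 (0.96), Atg16l1 and Btg2, for Cdkn1a Gstm1 (0.93), Sash1 and Zc2hc1a, and for Cdkn1c Dsel (0.96), Mfng and Zfp113.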

How the data were processed

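The data are RNA intensities of 20 Affymetrix mouse expression arrays, 2 biological replicates for each of 10 sorted populations. Per the labels' protocols, RNA was extracted with ISOGEN and biotinylated cRNA was made in 2 cycles from RNA of 3000 cells, which favours 3′ ends. The 3′ to 5′ ratio ran from 2.36 to 6.10 for Gapdh and from 1.34 to 2.73 for Actb. It differed by population, with Gapdh means of 5.98 in Erythroblast, 3.99 in LinNeg, 3.22 in Monocyte and 2.42 in Neutrophil. Its part in the differences between populations was not tested. The deposited intensity values of the authors are linear, 1 per probe set; the summarising software is not given in the sources used here. Each array has a mean of 100 after leaving out the lowest and highest 2%, which hides any difference in total RNA per cell. No detection calls were used.

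Groups and replicate numbers came from the sample titles. Of 45101 probe sets, 64 controls were left out; by the platform annotation 34945 had 1 gene symbol, 932 several and 9160 none. For each gene the probe set with the highest mean log2(intensity + 6.75) was kept, the pseudocount being the 25th percentile of all values, which understates the changes of dim genes. Genes whose highest population mean was above the median of all values entered a single fit with lmFit and eBayes (limma 3.58.1 in R 4.3.3, with trend) with 1 factor of 10 levels and 10 residual degrees of freedom. Calls needed an adjusted p under 0.05 (Benjamini-Hochberg within a contrast, over all genes tested) and an absolute log2 difference of at least 1. Populations on one side of a contrast had equal weight. The fit was tested on simulated data. The 2 arrays per population limit the precision.

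The 10 genes, the pathway lists and the contrasts were chosen with earlier results of these data known. All 10 genes could be named in every comparison; from a list, at most the 3 called genes with the largest differences could be named; and 3 genes most like each member, passing over uncharacterised symbols. Of the list genes, Ccnb1, Trp53, Bax and H19 were not analysed here, and Ccna1, Cdkn2a, Peg3, Zim1, Nnat and Slc22a18 were below the filter. Counts and medians of lists are descriptions with no test of the set. Alternatives covered the pseudocount, scaling, filter, probe sets, trend, replicate block, populations in a contrast and each array left out. Promoter sequences are RefSeq's (GRCm38.p6).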

Additional observations from a re-analysis of the deposited data

How the results depend on the processing

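The 45 differences of the 10 genes checked here were all those called and some uncalled ones named above. Of these 45, 23 kept their direction and their side of the threshold under every alternative run, and 22 did not under at least 1. Of 1394 values, 1320 kept both, 63 lost a call, 2 gained one and 9 changed sign. Most of the 45 were already called and could not gain a call, so the count of gained calls says little about uncalled differences. Outside the 45, Ccnd1 was called with both other probe sets in Erythroblast minus LinNeg (-1.61 and -2.97). It was also called with 1417419_at in NK minus NKT (2.32). Between B and T, where 1 gene was called, 0 were with the pseudocount at the 5th or the 50th percentile, quantile normalization, array median centring, no filter, a filter at the 75th percentile or the replicate block. With each array left out in turn the count of called genes ran from 0 to 1 for B minus T, CD4T minus CD8T and KSL minus LinNeg, from 1 to 2 for NK minus NKT and from 3 to 5 for Neutrophil minus Monocyte. The sign changed with the Ccnd3 probe set 1438805_at for lymphoid minus myeloid (1.72), NKT minus T (-0.73), Erythroblast minus other mature (-3.20) and Erythroblast minus LinNeg (-1.70). It changed with the mean of all probe sets for Ccnd3 in Erythroblast minus other mature (-0.15) and for Cdkn1b in lymphoid minus myeloid (0.091), which its probe set 1419497_at put at 0.29. It changed for Cdkn1a in Erythroblast minus LinNeg with 1421679_a_at (0.050) and, without Erythroblast in the mature mean, for Cdkn2c in KSL minus mature (0.20). The Ccnd2 call for KSL minus mature ended with probe sets 1416123_at (0.82) and 1416124_at (0.0050), and that of Ccnd3 with 1438805_at (-0.58). In Erythroblast minus LinNeg, the call of Cdkn1a ended without LinNeg replicate 1 (-1.59) or Erythroblast replicate 2 (-1.60), and that of Cdkn1c without LinNeg replicate 2 (-0.79) or either Erythroblast array (-1.47 and -1.40). Cdkn1b in Erythroblast minus other mature fell short of the size with quantile normalization (0.87), and Cdkn2d in Neutrophil minus Monocyte reached it with array median centring (1.00). The causes were not tested. Over all genes, the calls fell to 294 of 745 in KSL minus LinNeg without KSL replicate 2, to 357 without LinNeg replicate 1, to 213 of 444 in CD4T minus CD8T without CD4T replicate 1 (236 and 271 without CD8T replicates 1 and 2) and to 220 of 452 in NKT minus T without NKT replicate 2. Array median centring moved the median of all genes by 0.17 in Erythroblast minus other mature, 0.15 in Erythroblast minus LinNeg, -0.12 in lymphoid minus myeloid and 0.12 in Neutrophil minus Monocyte. No sign among the 45 differences changed with quantile normalization or array median centring. The other differences of the 10 genes, many of them close to 0, were not checked for this. The labels do not say whether equal replicate numbers pair the samples. The correlation of replicate 1 minus replicate 2 over 45 pairs of populations had a median of 0.0064. It was over 0.1 in 1 pair, the highest being 0.21, and cannot show that a pairing is absent, since noise of single arrays lowers it. With the numbers as a replicate block 2 calls of the 10 genes ended, those of Cdkn1c in B minus T and in Neutrophil minus Monocyte. Values near the median of all values, as those of Cdkn1c, are close to background, which limits their differences.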
